A study of Mus musculus with 21 samples.

Results

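miR-298-5p, miR-296-5p and miR-296-3p are 3 mature miRNAs cut from a pair of neighbouring hairpins, Mir298 and Mir296, beside the imprinted Gnas locus. They were taken by name from a table of 1125 mature miRNAs, and the set was picked because miR-298-5p has one of the largest rises in it. The values of miR-298-5p over the course therefore chose the members and are given as a description, with no test. The choice names no value of miR-296, but it was made with results of these data known.

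The libraries are small RNA libraries of the whole kidneys of 12-week-old BALB/c males. Kidneys were taken at day 0 and on days 1, 2 and 3 (early) and 7, 14 and 28 (late) after folic acid at 250 mg/kg in sodium bicarbonate, a dose that injures the renal tubules and leaves fibrosis. There are 3 libraries for each day and 21 in all, and the samples hold no vehicle or untreated group after day 0, so folic acid, injection and time cannot be told apart. The labels do not say whether day 0 mice were injected, nor whether each library is a mouse of its own, so p-values measure the spread between libraries, which may be technical.

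A miRNA hairpin is trimmed by Drosha and then by Dicer, and either strand (the 5p or the 3p arm) can be loaded into an Argonaute protein, where bases 2 to 8, the seed, choose the transcripts to be repressed. Imprinted genes are expressed mainly from the allele of 1 parent. In mouse, miR-296 and miR-298 are known to come from the paternal allele, as part of the long antisense transcript Nespas (Gnasas1 in RefSeq) that runs against the Nesp part of Gnas. Reads of these libraries do not separate alleles. miR-298 is known in mouse as a repressor of the beta-secretase Bace1, and miR-296-5p as a repressor of the pluripotency factor Nanog in mouse embryonic stem cells and as a growth factor-induced miRNA of human endothelial cells.

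Both hairpins lie on the minus strand of chromosome 2, Mir298 at chr2:174267504-174267585 and Mir296 at chr2:174267047-174267125 (RefSeq, GRCm38.p6), with 378 bases between them. No other RefSeq gene overlaps them there, and 13651 bases lie between the Mir298 hairpin and the annotated Gnasas1 gene. The hairpins are shown because the results compare the miRNAs of these precursors, with the mature arms in capitals, the 5p arm first.
Mir298 hairpin: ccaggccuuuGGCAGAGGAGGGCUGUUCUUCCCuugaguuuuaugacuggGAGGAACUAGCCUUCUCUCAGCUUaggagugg
Mir296 hairpin: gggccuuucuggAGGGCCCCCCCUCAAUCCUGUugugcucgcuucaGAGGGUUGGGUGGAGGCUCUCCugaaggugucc

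All 3 mature sequences matched a RefSeq entry of the same name, and they are printed below with the seed in capitals to show that the members share none. Each seed was held by no other mouse mature miRNA in that table, and each full sequence occurred in 1 hairpin.
miR-298-5p: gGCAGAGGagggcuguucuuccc
miR-296-5p: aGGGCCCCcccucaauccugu
miR-296-3p: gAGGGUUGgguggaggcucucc

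The members are rich in G and C. Their GC content was 65.2% in miR-298-5p, 66.7% in miR-296-5p and 68.2% in miR-296-3p. The median was 47.8% over the 318 tested miRNAs with a RefSeq sequence of the same name, of which 20 had a GC content at or above that of miR-296-5p. No other row of the table held the same reads as a member in all libraries.

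Levels are CPM (each miRNA’s reads scaled to the same fixed total for every library) after TMM scaling, which adjusts for differences in composition between libraries. The libraries hold 2875675 to 7110546 miRNA reads each. Where no read was counted, up to 3 are compatible with the 0, or 1.04 CPM at the lowest depth and 0.422 CPM at the highest; this limit and all intervals from reads cover counting error only. Of the 6 kidney miRNAs looked up by name 5 were in the table, and their summed level was 249900 to 265200 CPM at day 3 against 306300 to 368600 CPM at day 0, as in kidney tissue. In whole kidney, a change in the number of cells of a type and a change in RNA per cell cannot be told apart.

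miR-298-5p was scarce before injury and became a moderately abundant miRNA within 3 days. Its level was 2.34, 1.91 and 3.19 CPM in the day 0 libraries, and 3.19, 3.11 and 7.85 CPM on day 1. It was 14.0, 19.1 and 18.3 CPM on day 2, and 29.2, 39.9 and 26.9 CPM on day 3. It was 34.4, 30.9 and 22.4 CPM on day 7, then 15.1, 13.5 and 21.7 CPM on day 14, and 9.39, 7.14 and 8.18 CPM on day 28. From day 2 on, every library stood above all 3 day 0 libraries, whereas day 1 overlapped with day 0. Of all 431 tested miRNAs, 30.9% lay above day 0 in the same way on day 2 and 31.6% on day 3. The share was 31.1% for day 7, 27.4% for day 14 and 21.6% for day 28. By mean level miR-298-5p ranked 208 of 1125 rows on day 3, against 365 on day 0.

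In order of mean level the days ran day 0 (2.48 ± 0.648 CPM), day 1 (4.72 ± 2.71), day 28 (8.24 ± 1.12), day 14 (16.8 ± 4.32), day 2 (17.1 ± 2.75), day 7 (29.2 ± 6.18) and day 3 (32.0 ± 6.94; SD, n = 3 each). The libraries of days 28 and 14 did not overlap, nor did those of days 2 and 7. The pairs follow from the order of the means, and the share of all tested miRNAs that separate between these days was not counted. Each other pair of neighbours in that order overlapped, so days 3 and 7, days 14 and 2, and days 1 and 0 were not separated by their libraries. The highest means were thus those of days 3 and 7, with no day sampled between them, and the libraries of day 28 all lay below those of day 14.

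**Figure D1:**
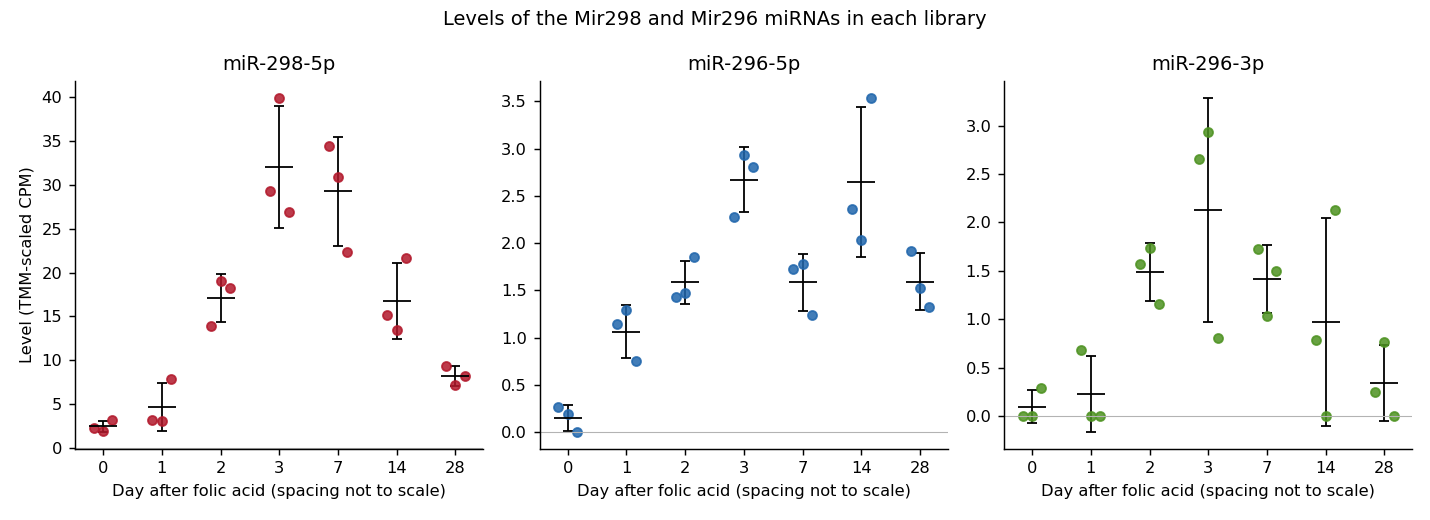
Level (TMM-scaled CPM) of each miRNA in each library by day after folic acid; coloured points are libraries, the black bar is the mean of 3 and the whiskers are 1 SD, and the panels have different vertical scales. miR-298-5p stood highest on days 3 and 7 (means 32.0 and 29.2 CPM), miR-296-5p stayed above its day 0 libraries on all later days, and the libraries of miR-296-3p on day 28 (mean 0.338 CPM) overlapped with those of day 0.

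On the log2(CPM + 1) scale, which understates changes of scarce miRNAs, miR-298-5p differed from day 0 by 0.63 on day 1, by 2.38 on day 2 and by 3.24 on day 3. Its difference was 3.11 on day 7, then 2.34 on day 14 and 1.42 at the end, on day 28. Each has an SE of 0.26, from 1 limma fit over all 21 libraries. The day 1 value rested on 1 library: it was 0.27 without day 1 replicate 3, the shallowest library of the series. Late days (7, 14 and 28) and early days (1, 2 and 3) differed by 0.20 (SE 0.15), with mean levels of 18.1 and 17.9 CPM.

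The raw reads give the size of the change without a pseudocount. Over the 3 libraries of a day, miR-298-5p had 424 reads (day 3) and 457 reads (day 7), against 30 at day 0. Summed CPM, here and below, is reads over library totals, without TMM scaling. On library totals the median log2 difference of all tested miRNAs on day 3 was 0.23, against 0.06 with TMM. In summed CPM, day 3 stood at 14.9 times day 0 (exact 95% interval 10.3 to 22.4) and day 7 at 13.5 times (9.34 to 20.3). Day 28, with 110 reads, was still at 3.29 times day 0 (2.18 to 5.11). Between libraries of day 3 the SD of CPM without TMM scaling was 6.87, against 2.87 that counting alone would give. On day 0 the same values were 0.692 and 0.729 CPM.

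Of all 431 tested miRNAs, miR-298-5p had the highest difference on the log2(CPM + 1) scale on days 3 and 7, rank 4 on day 2, rank 2 on day 14 and rank 3 on day 28. For day 1 its rank was 51. This order holds with the pseudocount of 1 CPM, which shrinks the differences of scarcer miRNAs: in summed CPM, without it, the ratios of day 3 to day 0 were higher for miR-296-3p (29.5) and miR-296-5p (19) than for miR-298-5p (14.9), with intervals that overlap. The miRNAs next below it on day 3 were miR-21-3p (2.73) and miR-212-3p (2.72). On day 7 they were miR-146b-5p (2.67) and miR-212-3p (2.64). All these neighbours were more abundant: miR-212-3p, the scarcest, averaged 47.6 CPM on day 3 against 6.53 CPM on day 0.

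**Figure D2:**
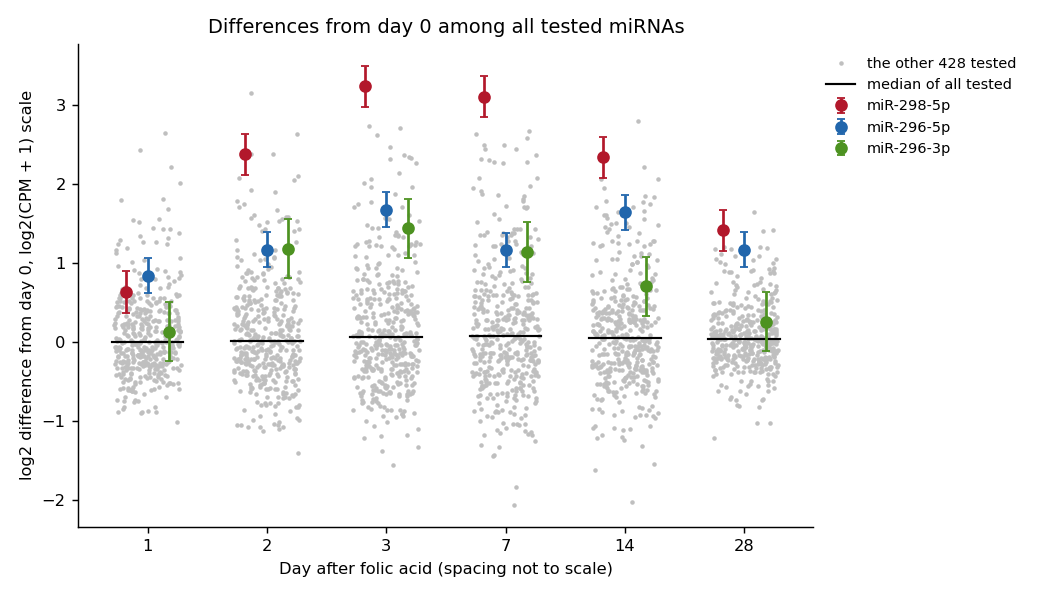
Difference from day 0 on the log2(CPM + 1) scale for all 431 tested miRNAs on each later day; coloured points are the 3 members with their SE, grey points the other miRNAs and black lines the median of all tested. miR-298-5p stands above every other tested miRNA on days 3 (3.24) and 7 (3.11), while the arms of miR-296 lie in the upper part of the distribution, with miR-296-3p close to the median on days 1 and 28.

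The 3p arm of Mir298 was nearly absent. miR-298-3p had 1 read in all 21 libraries, on day 14, against 1597 reads of miR-298-5p. The 5p arm thus held 99.9% of the reads of this hairpin (exact 95% interval 99.7% to 100%). A single read is under the limit of 3 that a count of 0 allows, so no course can be given for miR-298-3p.

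miR-296-5p, the 5p arm of the neighbouring hairpin, was close to undetected at day 0 and had reads in every later library. It stood at 0.263, 0.191 and 0 CPM on day 0, which is 1, 1 and 0 reads. It reached 1.14, 1.30 and 0.752 CPM on day 1, and 1.43, 1.47 and 1.85 CPM on day 2. The 0.752 CPM is 2 reads, under the 3-read limit of that library (1.04 CPM). Day 3 had 2.28, 2.93 and 2.81 CPM. Days 7 and 14 had 1.73, 1.78 and 1.24 CPM and 2.36, 2.03 and 3.54 CPM, and day 28 had 1.92, 1.53 and 1.33 CPM. Every library of a later day lay above all 3 day 0 libraries. Over the 431 tested miRNAs, the share with all 3 libraries of the day above all 3 of day 0 was 18.1% for day 1, 30.9% for day 2 and 31.6% for day 3. It was 31.1% for day 7, 27.4% for day 14 and 21.6% for day 28.

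In order of mean level miR-296-5p ran day 0 (0.151 ± 0.136 CPM), day 1 (1.06 ± 0.280), then days 2, 7 and 28 (1.58 ± 0.232, 1.58 ± 0.297 and 1.59 ± 0.302), day 14 (2.64 ± 0.793) and day 3 (2.67 ± 0.347; SD, n = 3 each). Days 2, 7 and 28 overlapped in that order, as did days 14 and 3. The libraries of day 0 and day 1, of day 1 and day 2, and of day 28 and day 14 did not overlap. For day 1 against day 0, 18.1% of all tested miRNAs lay above in the same way. For the other pairs, which follow from the order of the means, that share was not counted. Its mean on day 28 was 1.59 CPM, against 2.67 CPM on day 3, where the means of miR-298-5p were 8.24 and 32.0 CPM.

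miR-296-5p passed the filter on low values through 4 libraries, 3 of day 3 and 1 of day 14, and no day 0 library reached that level, so its place among the 431 tested miRNAs depends on days when it is high. The tests are therefore given with the filter and without it, over all 875 miRNAs with a read. The limma F test over the 6 contrasts with day 0 gave an adjusted p of 3.23e-05 with the filter and 3.44e-05 without. miR-296-5p was called higher than day 0 on all 6 later days in both fits, on the log2(CPM + 1) scale with SE 0.22 (without the filter, limma adjusted p from 4.03e-06 on day 3 to 0.00708 on day 1). With the filter the difference was 0.84 for day 1 (limma adjusted p = 0.00789), 1.17 for day 2 (0.000253) and 1.68 for day 3 (3.45e-06). It was 1.17 for day 7 (limma adjusted p = 0.000179), 1.65 for day 14 (5.69e-06) and 1.17 for day 28 (0.000833). The test called 25.3% of the 431 miRNAs in either direction for day 1, 43.4% for day 2 and 49.4% for day 3. It called 52.4% for day 7, 42.9% for day 14, 13% for day 28 and 63.1% in the F test. All these contrasts share the same 3 day 0 libraries. The day 1 call was lost in a fit of days 1 and 0 alone (adjusted p = 0.0880) and in DESeq2 (0.0611). Late and early days were not called different (difference 0.10, SE 0.13, adjusted p = 0.580, with 36.9% of miRNAs called and 19.3% called higher).

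These calls rest on few reads. miR-296-5p had 158 reads in all 21 libraries, between 2 and 15 in each library after day 0. Summed over 3 libraries it had 36 reads on day 3 and 2 on day 0, a ratio of 19 in summed CPM with an exact 95% interval of 4.89 to 163. On day 28 it had 21 reads, 9.43 times day 0 (2.30 to 82.9). Day 28 stood at 0.496 times day 3 (0.275 to 0.873). Without TMM scaling, the SD of miR-296-5p CPM between libraries was below what counting alone would give on each day except day 14. On day 3 it was 0.386 CPM against 0.836, and on day 14 it was 1.00 against 0.812. The limma SE can therefore be too small here, and its adjusted p too low. In DESeq2 the adjusted p was 0.00858 for day 2, 0.00087 for day 3, 0.0068 for day 7 and 0.001065 for day 14.

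miR-296-3p, the opposite arm of the same hairpin, was as scarce at day 0 and stood clear of its day 0 libraries on fewer days. This does not show that the courses of the arms differ, since miR-296-3p had few reads on days 1, 14 and 28. The arm ratio, tested below, was not separated between late and early days, nor between later days and day 0. It had no read in the first pair of day 0 libraries and 0.290 CPM, which is 1 read, in the third. On day 1 it stood at 0.683 CPM, 0 and 0. It was at 1.57, 1.74 and 1.16 CPM on day 2, 2.66, 2.93 and 0.805 CPM on day 3, and 1.73, 1.04 and 1.49 CPM on day 7. Day 14 was spread widely, with 0.789, 0 and 2.12 CPM, and day 28 had 0.246, 0.768 and 0 CPM. All libraries of days 2, 3 and 7 lay above all of day 0, while those of days 1, 14 and 28 overlapped with it. The share of all tested miRNAs that lay above day 0 in the same way was 30.9%, 31.6% and 31.1% for days 2, 3 and 7.

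By mean level miR-296-3p ran day 0 (0.0966 ± 0.167 CPM), day 1 (0.228 ± 0.395), day 28 (0.338 ± 0.392), day 14 (0.971 ± 1.07), day 7 (1.42 ± 0.350), day 2 (1.49 ± 0.299) and day 3 (2.13 ± 1.16; SD, n = 3 each). Every pair of neighbours in that order overlapped. Day 3 replicate 3, at 0.805 CPM, lay below all libraries of days 2 and 7, although the mean of day 3 was the highest.

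miR-296-3p passed the filter through 3 libraries, 2 of day 3 and 1 of day 14, and through none of day 0, so it too is tested with the filter and without it. The limma F test gave an adjusted p of 0.00744 with the filter and 0.0121 without. It was called higher on day 2 by 1.19 (adjusted p = 0.0143 in limma), on day 3 by 1.44 (0.00314) and on day 7 by 1.14 (0.0144), with SE 0.38 on the log2(CPM + 1) scale. Without the filter the adjusted p in limma was 0.0230, 0.00519 and 0.0236 for these days. Day 14 (0.71, adjusted p = 0.131), day 1 (0.13, 0.826) and day 28 (0.26, 0.707) did not pass. Without the filter they did not pass either (limma adjusted p = 0.201, 0.983 and 0.847). Day 14 passed in edgeR (adjusted p = 0.0464) and in DESeq2 (0.0280) on the recovered reads, and without day 14 replicate 2, which had no read of it (difference 1.12, 0.0199). These fits all kept the filter, which miR-296-3p passed in part through a day 14 library, so they are no separate support for day 14. Without day 14 replicate 3 the difference was 0.30 (0.570). The day 2 call was lost without day 2 replicate 2 (0.0512) and the day 7 call without day 7 replicate 1 (0.0517). Late and early days were not called different (-0.22, SE 0.22, adjusted p = 0.465).

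With 99 reads in all libraries, miR-296-3p is the scarcest member. Summed reads were 29, 28 and 21 for days 2, 3 and 7, against 1 for day 0. The ratio of day 3 to day 0 was 29.5, with an exact 95% interval of 4.88 to 1208, so its size is not determined. On day 28 there were 4 reads (3.59 times day 0, 0.355 to 177), and day 28 stood at 0.122 times day 3 (0.0310 to 0.347). On day 1, with 3 reads, both days were at or under the limit of 3 reads.

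Both arms of miR-296 were recovered in comparable amounts, in contrast to the single arm of miR-298. Over all libraries miR-296-5p held 61.5% of 257 reads (158 and 99 reads, exact 95% interval 55.2% to 67.5%). Its share was 50% in the day 2 libraries (36.6% to 63.4%), 56.3% in those of day 3 (43.3% to 68.6%) and 54.3% in those of day 7 (39.0% to 69.1%). Day 14 had 71.7% (56.5% to 84.0%) and day 28 had 84.0% (63.9% to 95.5%). On day 1 it was 80.0% of 15 reads (51.9% to 95.7%), and on day 0 only 3 reads were counted.

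The arm ratio of late and early days was not separated from the spread between libraries. Among libraries with both arms, the mean log2 ratio of miR-296-5p to miR-296-3p was 0.97 in 7 late and 0.37 in 7 early libraries, a difference of 0.59 (two-sided exact permutation test over 3432 arrangements, p = 0.252). It was 0.26 without day 28 replicate 1 (p = 0.536 in the same exact test) and 0.83 without day 3 replicate 3 (p = 0.0804). Early and late libraries with no miR-296-3p read drop out of this ratio. With a pseudocount of 1 CPM, which keeps 9 late and 9 early libraries, the difference was 0.28 (exact p = 0.288). No day 0 library held both arms, so later days and day 0 could be compared only with a pseudocount of 1 CPM on each arm. That difference was 0.46 (18 against 3 libraries, two-sided exact permutation test, p = 0.195), where the day 0 ratio is made almost wholly of the pseudocount. It was 0.25 without day 0 replicate 3 (exact p = 0.595).

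The counted ratio of miR-298-5p to miR-296 reads varied between days. Over summed reads, miR-298-5p had 3.13 reads for each read of miR-296 (both arms) on day 1 (exact 95% interval 1.72 to 6.03). Day 2 had 5.52 (4.16 to 7.43), day 3 had 6.63 (5.08 to 8.76) and day 7 had 9.93 (7.33 to 13.8). The ratio was 4.54 on day 14 (3.29 to 6.40) and 4.40 on day 28 (2.83 to 7.09), and on day 0, with 3 reads of miR-296, 10 (3.11 to 51.2). By library it was 4.67, 5.96 and 6.08 on day 2 and 5.92, 6.80 and 7.44 on day 3. It was 9.94, 10.9 and 8.18 on day 7, against 4.81, 6.67 and 3.83 on day 14 and 4.33, 3.11 and 6.14 on day 28. The libraries of day 7 thus lay above those of days 14 and 28, with no overlap. How often other pairs of miRNAs separate in this way was not counted. On day 1 the ratio was 1.75, 2.40 and 10.5, and the last was again replicate 3. Since miR-298-5p was chosen for its level on these days, the ratio is a description and was given no test.

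**Figure D3:**
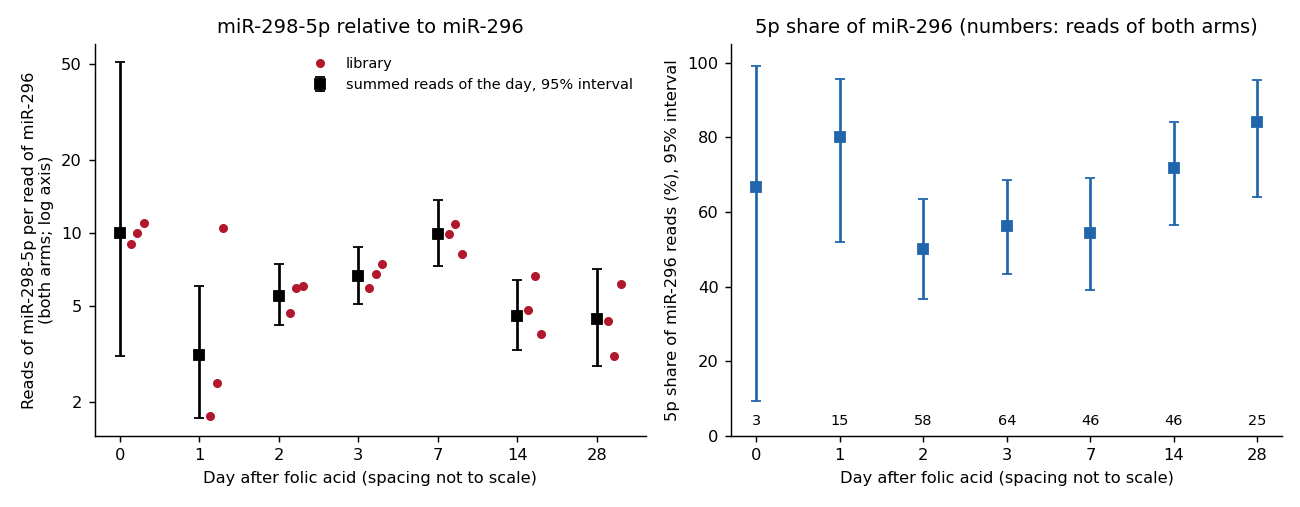
Left, reads of miR-298-5p for each read of miR-296 (both arms, log axis) by day; squares are summed reads with exact 95% intervals and red points single libraries. Right, the 5p share of miR-296 reads with exact 95% intervals, with the number of reads of both arms along the bottom; the left ratio is 9.93 on day 7 against 4.54 on day 14, and the right share is 50% on day 2 and 84.0% on day 28 with wide intervals.

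The miRNAs whose courses lay nearest were sought among the 292 tested miRNAs averaging 10 CPM or more. Likeness was the root-mean-square distance between the 7 day means of log2(CPM + 1), each course centred on its own mean. For miR-298-5p the nearest was miR-214-3p, a miRNA of mesenchymal cells cut from the Dnm3os transcript (distance 0.34, against a median of 1.16 over all candidates). It averaged 247.9 CPM on day 3 and 232 CPM on day 7, against 46.8 CPM on day 0. Next came miR-130b-3p (0.38), miR-146b-5p, which is induced by NF-kB (0.51), and miR-375-3p, known from pancreatic islets (0.54). miR-130b-3p averaged 49.9 CPM on day 3 and 17.7 CPM on day 28, against 9.10 CPM on day 0. All 4 had smaller differences from day 0 than miR-298-5p on day 2. On days 3 and 7 this holds for every other tested miRNA, since miR-298-5p had rank 1.

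For miR-296-5p the nearest courses were those of miR-350-3p (0.24), miR-142-5p of blood cells (0.29), miR-182-5p (0.29) and let-7i-3p (0.29), with a median of 0.57 over all candidates. For miR-296-3p they were miR-15b-5p (0.17), a repressor of cell cycle genes, its opposite arm miR-15b-3p (0.25), let-7i-5p (0.25) and miR-224-5p (0.26), with a median of 0.58. miR-15b-5p averaged 158 CPM on day 3 and 66.3 CPM on day 28, against 61.0 CPM on day 0. The members themselves were left out of the search, and no miRNA was among the nearest 4 of more than 1 member. The distance keeps the size of a change, which the pseudocount shrinks most for miR-296, so unshared neighbours do not show unlike courses.

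**Figure D4:**
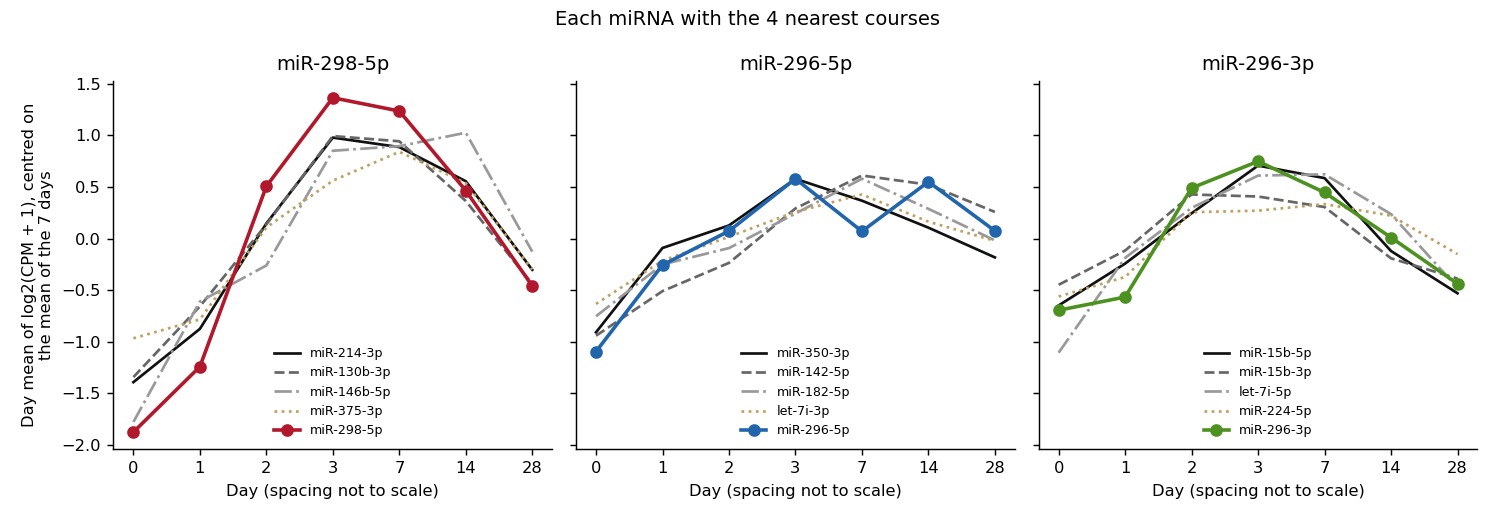
Day means of log2(CPM + 1), centred on the mean of the 7 days, for each member (coloured, with points) and its 4 nearest courses (grey and brown lines). miR-298-5p lies at a distance of 0.34 from miR-214-3p and stands higher on days 3 and 7. miR-296-5p has its highest means on days 3 and 14, with counting intervals that overlap that of day 7. On this scale, which flattens the scarce miR-296 most, miR-296-3p lies 0.17 from miR-15b-5p.

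Few other imprinted miRNAs were called. Of 50 looked up, from the Dlk1-Dio3, Mest, Igf2 and H19 loci, all were in the table and 15 were tested. Of these 15, 1 was called higher on day 1, then 2 for day 2, 3 for day 3 and 0 for days 7, 14 and 28, and 0 were called lower on any day (limma adjusted p under 0.05). Over all tested miRNAs, 14.2% were called higher for day 1, 24.4% for day 2 and 30.4% for day 3. The share was 29.7% for day 7, 25.1% for day 14 and 11.1% for day 28. The median difference of the 15 imprinted miRNAs was 0.20 on day 3 and 0.22 on day 7, against 0.06 and 0.07 over all tested miRNAs. The called ones, all of the Dlk1-Dio3 cluster, were miR-409-3p (5.28, 7.50 and 5.69 CPM on days 1, 2 and 3, against 1.803 CPM on day 0), miR-341-3p (2.89 and 3.02 CPM on days 2 and 3, against 0.835 CPM) and miR-541-5p (23.6 CPM on day 3, against 12.9 CPM). These calls are given with the filter only. The day 0 means of miR-409-3p and miR-341-3p lay under its level of about 2.23 CPM, so their being tested can depend on days when they are high. miR-335-5p of Mest averaged 40.7 CPM on day 3 and 38.2 CPM on day 0 (difference 0.09, limma adjusted p = 0.765), and neither arm of miR-675 from H19 had a read in any library.

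Marker lists of other cells moved in different directions over the days when the members were high. All 8 leukocyte miRNAs looked up were in the table, with a summed level of 1971 to 2852 CPM on day 3 and 2291 to 3348 CPM on day 7, against 938 to 1236 CPM on day 0, and 6 of 8 were called higher on each of days 3 and 7. The summed level of 6 mesenchymal miRNAs, mostly miR-143-3p, was 68320 to 71650 CPM on day 3, against 64190 to 82850 CPM on day 0, with 5 of 6 called higher. Of 11 neural or endocrine names 9 were in the table, with a summed level of 778 to 940 CPM on day 3, against 537 to 579 CPM on day 0. The 1 called higher among them was miR-375-3p, and miR-124-3p had 2 reads in all. The endothelial list, miR-126-3p and miR-126-5p, was called lower in both of its members on days 2, 3, 7 and 14, with a summed level of 10650 to 11640 CPM on day 3, against 13250 to 15450 CPM on day 0. Of 5 erythroid names 4 were in the table; 1 was called higher on day 1 and 3 on day 2, while 2 were called lower on day 3 and 2 on day 14. Their summed level was 4732 to 9596 CPM on day 2 and 1140 to 1771 CPM on day 3, against 1294 to 3378 CPM on day 0. Over all 431 tested miRNAs, limma called 25.3% in either direction on day 1, with 14.2% higher. The same shares were 43.4% and 24.4% on day 2, and 49.4% and 30.4% on day 3. They were 52.4% and 29.7% on day 7, and 42.9% and 25.1% on day 14, the rest of each being called lower. No marker row of these lists was without a read in all libraries. The part of these cells in the courses of miR-298-5p and miR-296 was not tested.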

How the data were processed

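Small RNA was measured in 21 kidney libraries, 3 for each of 7 days. The authors deposited CPM for 1125 mature miRNAs: every column sums to the same total. Per the submitters' processing notes, CASAVA 1.8 and build mm9 were used, and the sources used here give no aligner, counter or miRBase release. Whole reads were recovered for 100% of the values, within 0.05 of a read. filterByExpr (minimum count 10, a level of about 2.23 CPM in at least 3 libraries) left 431 miRNAs. limma 3.58.1 (limma-trend, R 4.3.3) was fitted to log2(CPM + 1) after TMM scaling, with a mean for each day, Benjamini-Hochberg adjustment over all tested miRNAs and a threshold of 0.05. On the recovered reads, edgeR 4.0.16 called 211 miRNAs on day 3 and 225 on day 7, where limma called 213 and 226. DESeq2 1.42.0 was a further alternative. Exact 95% intervals (Clopper-Pearson for shares and ratios) came from scipy 1.17.1. The functions were tested on simulated data. Members and lists were chosen with earlier results of these data known. Named miRNAs are the members, the 4 nearest courses of each, the miRNAs next in rank to miR-298-5p on days 3 and 7, called members of the imprinted list, and markers. Other settings and each library left out in turn were tried.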

Additional observations from a re-analysis of the deposited data

How the results depend on the processing

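Of 25 results, 239 of 251 values under other settings kept their direction and side of the threshold (for miR-298-5p, moved by less than its residual SD of 0.348). On the recovered reads, with no pseudocount of 1 CPM, the log2 difference of miR-298-5p was larger: for day 2 it was 2.81 in edgeR and in DESeq2, for day 3 it was 3.70 and 3.66, for day 7 it was 3.59 and 3.55, and for day 14 it was 2.80 and 2.76. For miR-296-5p on day 1 the adjusted p was 0.0611 in DESeq2 and 0.0880 in the fit of days 1 and 0 alone. For miR-296-3p on day 14 it was 0.0464 in edgeR and 0.0280 in DESeq2, both with the filter, and 0.201 in limma without the filter. The causes were not tested. DESeq2 gave no adjusted p for either arm on day 28. No day 0 library held both arms of miR-296, so that comparison had no value without a pseudocount. With 1 library left out, the adjusted p of miR-296-3p ran from 0.0200 to 0.0512 for day 2, 0.0182 to 0.0517 for day 7, 0.0199 to 0.570 for day 14 and 0.699 to 0.933 for day 1, where its sign turned without day 1 replicate 1 (-0.12, adjusted p = 0.860). The difference of miR-298-5p on day 1 ran from 0.27 to 0.85. Library totals in place of TMM moved the median of all miRNAs on day 3 to 0.23 from 0.06. Libraries with the same replicate number did not deviate together (median r -0.02 over 63 pairs, 15 of them over 0.1, and 6 of 21 libraries nearest their own number). With the replicate block no call changed: for miR-296-5p on day 3 the adjusted p was 1.1e-05, for miR-296-3p on day 3 it was 0.00449, and the late against early arm ratio had p = 0.283 in an exact permutation within numbers. Depth limits miR-296, with 2 and 1 reads on day 0.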
